A study of Mus musculus with 14 samples.

Results

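The Hox genes of the mouse colon were examined in 14 RNA sequencing libraries. All 39 genes whose names consist of Hox, a cluster letter (a to d) and a paralog number were taken from the 21898 genes of the deposited count table: 11 of the Hoxa cluster, 10 of Hoxb, 9 of Hoxc and 9 of Hoxd, in 13 paralog groups. The choice used names only and no measured value, though earlier results of these data were known when it was made. RNA came from the colon of wild-type (wt) mice gavaged with Bacteroides thetaiotaomicron, a gut commensal that degrades polysaccharides (7 samples), or with phosphate-buffered saline, PBS (7 samples). All 14 samples carry 1 shared treatment label (a drug stimulation) and 1 shared batch label, and only the titles tell the gavages apart. Neither the strain, age and sex of the mice, nor the stretch of colon that was taken, nor the time after gavage is given in the labels. Titles mark most samples as biological replicates without saying whether each came from its own animal, so the p-values reflect sample-to-sample spread, which may be technical in part. Samples are named below by group and library number.

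Hox genes encode homeodomain transcription factors that give cells their position along the head-to-tail axis. They lie in clusters whose gene order matches the order in which they act along the body, with low paralog numbers active toward the head and high numbers toward the tail. In the adult gut the pattern persists in part, and genes of paralog group 13, such as Hoxb13 and Hoxd13, are known as genes of the distal hindgut. Genes with the same number in different clusters are paralogs that descend from 1 ancestral gene.

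In the GENCODE M21 annotation of GRCm38 the Hoxa cluster spans chr6:52155590-52260880 and Hoxb spans chr11:96194316-96368256. Hoxc spans chr15:102921103-103036852 and Hoxd spans chr2:74668310-74765142. All 39 identifiers in the table have an entry there with the same name. The homeobox, which encodes the DNA-binding homeodomain, was read from the GENCODE coding sequences as 180 bases in each of the 39 genes. It is shown for the 3 detected genes of group 13 and for Hoxb8, the genes on which most of the results turn, because their shared stretches are where reads of paralogs could be confused. Capitals mark the 8 codons of the third, DNA-contacting helix from its tryptophan on, and each sequence runs 5′ to 3′ on the coding strand.
Hoxa13: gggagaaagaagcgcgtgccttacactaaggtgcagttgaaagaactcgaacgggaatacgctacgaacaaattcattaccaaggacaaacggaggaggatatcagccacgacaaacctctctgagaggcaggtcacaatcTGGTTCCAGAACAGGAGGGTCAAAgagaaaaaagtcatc
Hoxb13: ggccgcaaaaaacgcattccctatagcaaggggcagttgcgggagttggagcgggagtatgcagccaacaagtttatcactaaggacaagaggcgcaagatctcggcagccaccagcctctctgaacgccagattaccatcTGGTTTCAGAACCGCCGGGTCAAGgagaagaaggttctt
Hoxd13: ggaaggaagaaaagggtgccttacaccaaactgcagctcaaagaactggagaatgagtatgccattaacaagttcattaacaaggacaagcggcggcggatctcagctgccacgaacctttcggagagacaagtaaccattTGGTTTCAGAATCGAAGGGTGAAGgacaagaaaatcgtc
Hoxb8: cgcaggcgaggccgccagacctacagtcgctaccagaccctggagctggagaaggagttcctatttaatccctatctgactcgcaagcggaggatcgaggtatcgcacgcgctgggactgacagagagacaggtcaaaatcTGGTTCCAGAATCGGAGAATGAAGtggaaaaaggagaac

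These homeoboxes lie at chr6:52258928-52259107 (minus strand, Hoxa13), chr11:96196020-96196199 (plus strand, Hoxb13), chr2:74669930-74670109 (plus strand, Hoxd13) and chr11:96284174-96284353 (plus strand, Hoxb8). Each is in the last exon of its gene. The Hoxa13 and Hoxb13 homeoboxes were identical at 68.9% of positions, Hoxa13 and Hoxd13 at 73.9%, and Hoxb13 and Hoxd13 at 67.2%. Their longest shared runs were 9 to 11 bases. Over all 741 pairs of Hox homeoboxes, 1 pair, Hoxa6 and Hoxb4, shared a run of 50 bases or more. Sequence outside the homeobox was not compared. Some Hox genes overlap in the annotation: Hoxa3 with Hoxa4 to Hoxa6, Hoxd3 with Hoxd4, and Hoxc5 with Hoxc6 and Hoxc8 to Hoxc10. Each overlap is between genes on the same strand, so strand alone cannot assign such reads. How reads in the overlaps were counted is not given in the sources used here, so values of these genes are uncertain.

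Total counts were 13150140 to 16781708 per library, and Hox genes together held 5804 to 16579 counts in each. Colonic epithelial markers were abundant in every library: the summed level of the 10 genes was 11760 to 16450 CPM after B. thetaiotaomicron and 10740 to 16850 CPM after PBS (CPM, counts scaled to library size). Markers of anal squamous epithelium were near 0, with sums of 0.815 to 2.80 CPM after B. thetaiotaomicron and 0.841 to 2.08 CPM after PBS, and Krt4 was at 0 in all 14. The summed level of the 4 genes Gata4, Sox2, Fabp6 and Slc10a2, which mark stomach or small intestine, was 6.16 to 100.1 CPM after B. thetaiotaomicron and 5.19 to 288.4 CPM after PBS. None of the 4 was at 0 in every library. The sum came mostly from Slc10a2, the ileal bile acid transporter, at 93.2 CPM in B. thetaiotaomicron sample 2 and 281.6 CPM in PBS sample 4. The other members did not all follow it. In PBS sample 4, Fabp6 was at its highest, 6.365 CPM, while Gata4 and Sox2 were 0.260 and 0.130 CPM, below their PBS medians. Gata4 was highest in B. thetaiotaomicron sample 2, at 2.73 CPM. B. thetaiotaomicron sample 2 and PBS sample 4 also stand apart in the Hox genes, and the part of tissue position in what follows was not tested.

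Most of the Hox RNA came from few genes. In all, 12 of the 39 genes reached 1 CPM in all 14 samples: 8 of Hoxa, 3 of Hoxb (Hoxb5, Hoxb6 and Hoxb9) and Hoxd8. Another 11 genes stayed below 1 CPM in every sample, 3 of them (Hoxb1, Hoxc12 and Hoxc13) at 0 counts throughout, which allows a level of up to 0.0144 CPM over the 208339429 counts of the 14 libraries. The other 16 crossed 1 CPM between samples. By level per length, Hoxb13 was first with a mean of 81.6 FPKM over the 14 samples, followed by Hoxa13 with 30.1, Hoxa10 with 21.2, Hoxb9 with 20.3, Hoxa7 with 14.9 and Hoxd13 with 10.4 FPKM. The order differed between samples: Hoxb13 led in 10 of them by FPKM, Hoxa13 led in B. thetaiotaomicron sample 4 and PBS sample 2, and Hoxb9 led in B. thetaiotaomicron sample 2 and PBS sample 4. With spreads as wide as these, neighbours in the order are not told apart: Hoxa10, for example, averaged 25.0 ± 2.48 FPKM after B. thetaiotaomicron and 17.4 ± 6.91 after PBS, and Hoxb9 averaged 18.5 ± 4.38 FPKM after B. thetaiotaomicron and 22.1 ± 9.09 FPKM after PBS (SD, n = 7 each).

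**Figure D1:**
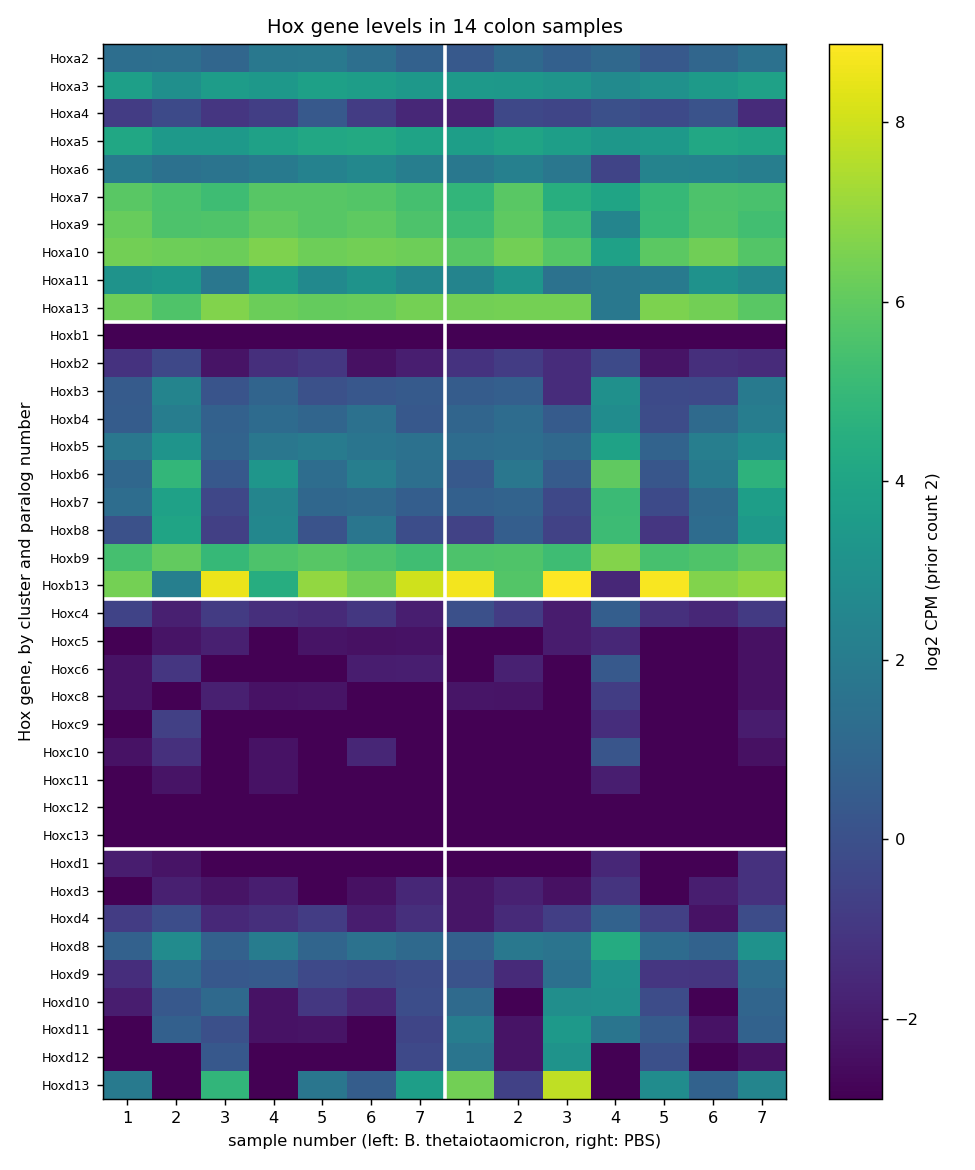
Log2 CPM (colour) of the Hox genes reported here (rows, by cluster and paralog number) in 14 colon samples (columns, B. thetaiotaomicron on the left and PBS on the right). PBS sample 4 is dark at Hoxb13 and Hoxd13 and darker than every other sample at Hoxa13. It is brighter than every other sample at Hoxb3 to Hoxb9, while the Hoxc rows are dark in nearly every sample.

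In paralog group 13, Hoxb13 and Hoxd13 had the largest SD of log2 CPM of the tested Hox genes (2.92 and 3.34 over the 14 samples). Hoxb13 ranged from 4.38 CPM (sample 2) through a median of 86.4 to 375.6 CPM (sample 3) after B. thetaiotaomicron, against 0.195 CPM (sample 4) through 124.8 to 469.8 CPM (sample 3) after PBS. The groups overlap over almost the whole of that range. B. thetaiotaomicron sample 3 and PBS samples 1, 3 and 5 were the highest, and PBS sample 4 was at 3 counts.

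Hoxd13, the gene at the group 13 end of the Hoxd cluster, ranged from 0 CPM (samples 2 and 4) through 3.19 to 28.5 CPM (sample 3) after B. thetaiotaomicron. After PBS it ranged from 0 CPM (sample 4) through 5.29 to 216.4 CPM (sample 3). The groups overlap, and PBS samples 3 and 1 stood above all others. A count of 0 allows up to 0.215 CPM in B. thetaiotaomicron sample 2, 0.202 CPM in B. thetaiotaomicron sample 4 and 0.195 CPM in PBS sample 4; these floors of 3 counts cover counting error only.

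Hoxa13, which patterns the limb tip and the hindgut and urogenital outlets in the embryo, had an SD of 1.22. It ranged from 49.6 CPM (sample 2) through 75.2 to 98.9 CPM (sample 3) after B. thetaiotaomicron, against 3.38 CPM (sample 4) through 82.9 to 93.4 CPM (sample 5) after PBS. PBS sample 4 lay far below every other sample of either group, and otherwise the groups overlap. Hoxc13, known from hair and nail, was at 0 in all 14 samples.

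Group 13 as a whole held 12.8% of Hox counts in B. thetaiotaomicron sample 2 (Wilson 95% interval 11.99 to 13.7%) and 67.8% in B. thetaiotaomicron sample 3 (66.9 to 68.6%). It held 0.948% in PBS sample 4 (0.729 to 1.23%) and 78.0% in PBS sample 3 (77.3 to 78.6%). Intervals cover counting error only. The medians of the groups were close, at 35.0% after B. thetaiotaomicron and 38.7% after PBS.

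**Figure D2:**
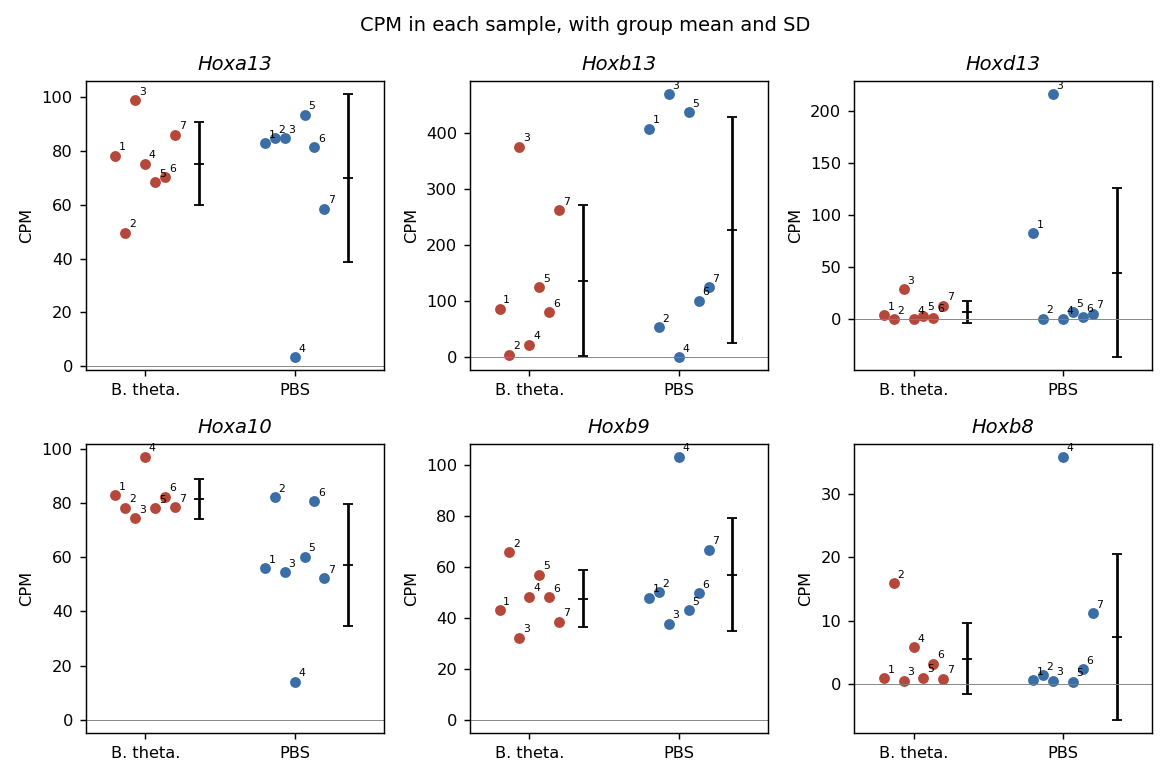
CPM of 6 Hox genes in each sample (points, numbered by sample, B. thetaiotaomicron left and PBS right), with group mean and SD (bars, n = 7 each). PBS sample 4 is lowest for Hoxa13, Hoxb13 and Hoxa10 and highest for Hoxb9 and Hoxb8, and PBS sample 3 is highest for Hoxd13.

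Paralog groups 9 to 12, the neighbours of group 13, were carried by Hoxa9, Hoxa10 and Hoxb9. Hoxa10, an AbdB-class gene known from the reproductive tract, ranged from 74.4 CPM (sample 3) through 78.4 to 97.0 CPM (sample 4) after B. thetaiotaomicron, against 14.1 CPM (sample 4) through 55.9 to 82.1 CPM (sample 2) after PBS. All 7 B. thetaiotaomicron samples lay within a narrow band that PBS samples 2 and 6 also reached. Hoxa9 ranged from 47.6 to 69.3 CPM after B. thetaiotaomicron, against 5.46 (sample 4) to 62.9 CPM after PBS. Hoxb9 went the other way in PBS sample 4, where it reached 103.1 CPM; the remaining samples of both groups lay between 32.2 and 66.8 CPM. Hoxa11 ranged from 2.80 to 11.9 CPM over the 14 samples. Hoxc9, Hoxc10 and Hoxc11 did not exceed 1.04 CPM in any sample.

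The Hoxd genes of these groups were low. Hoxd9 ranged from 0.251 to 2.30 CPM after B. thetaiotaomicron and 0.219 to 8.44 CPM after PBS. Hoxd10 ranged from 0.0674 to 2.05 CPM after B. thetaiotaomicron and 0 to 7.92 CPM after PBS. Hoxd11 ranged from 0 to 1.51 CPM after B. thetaiotaomicron and 0.0672 to 10.9 CPM after PBS, and Hoxd12 from 0 to 1.13 CPM after B. thetaiotaomicron and 0 to 8.71 CPM after PBS. The highest values of the 4 genes were in PBS samples: PBS sample 4 for Hoxd9 and Hoxd10, and PBS sample 3 for Hoxd11 and Hoxd12.

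Across the Hoxd cluster, 2 PBS samples had opposite profiles. PBS sample 3 had 3627 counts of Hoxd13, 146 of Hoxd12, 182 of Hoxd11, 123 of Hoxd10, 44 of Hoxd9 and 50 of Hoxd8. PBS sample 4 had 0 of Hoxd13, 0 of Hoxd12, 47 of Hoxd11, 122 of Hoxd10, 130 of Hoxd9 and 310 of Hoxd8. Counts were concentrated at Hoxd13 in PBS sample 3 and at Hoxd8 in PBS sample 4, and those of Hoxd10 were nearly equal in both.

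**Figure D3:**
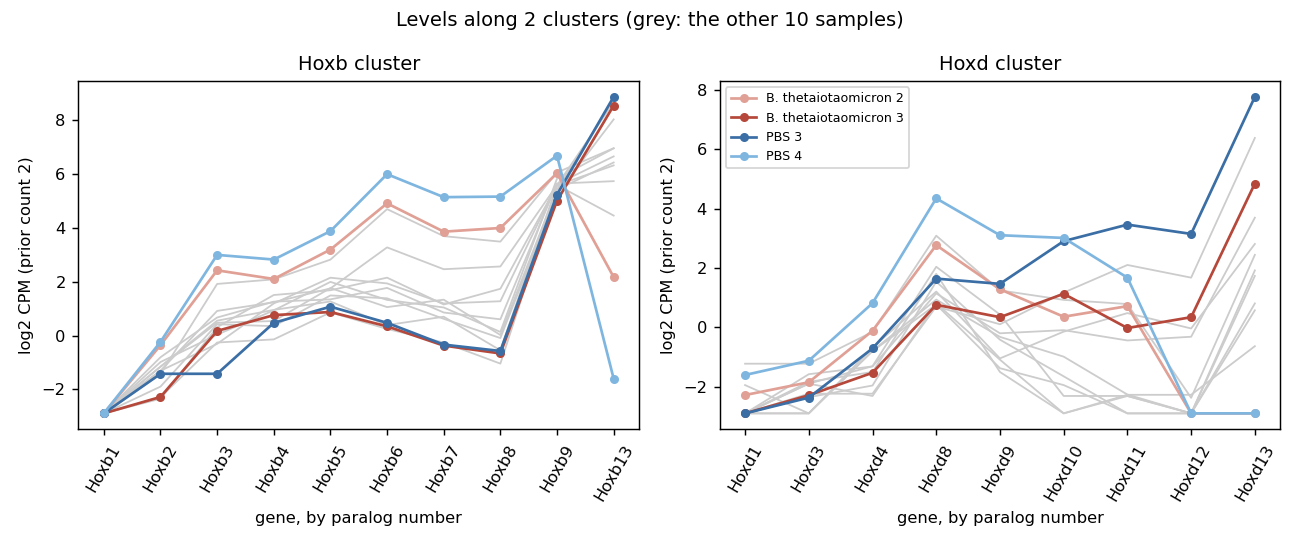
Log2 CPM along the Hoxb cluster (left) and the Hoxd cluster (right), genes on the x axis by paralog number, 1 line per sample with 4 samples in colour and the other 10 in grey. In PBS sample 4 the line is high through Hoxb3 to Hoxb9 and at the bottom at Hoxb13 and Hoxd13, and PBS sample 3 has the reverse.

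Groups 5 to 8, the central genes, split by cluster. Hoxb8, known from the spinal cord and from myeloid cells of mice, ranged from 0.496 CPM (sample 3) through 0.963 to 15.8 CPM (sample 2) after B. thetaiotaomicron, against 0.350 CPM (sample 5) through 1.38 to 35.8 CPM (sample 4) after PBS, a span of 102.2-fold over the 14 samples. Hoxb6 ranged from 1.13 to 30.0 CPM (sample 2) after B. thetaiotaomicron, against 1.05 to 63.9 CPM (sample 4) after PBS. Hoxb7 ranged from 0.637 to 14.4 CPM (sample 2) after B. thetaiotaomicron, against 0.656 to 35.3 CPM (sample 4) after PBS. In all 3 genes the highest sample of each group was the same, and the groups overlap below it.

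The Hoxa genes of these groups did not follow. Hoxa7 ranged from 37.7 CPM (sample 3) through 53.3 to 57.3 CPM (sample 1) after B. thetaiotaomicron, against 15.8 CPM (sample 4) through 31.2 to 57.5 CPM (sample 2) after PBS. Hoxa5 was among the least variable, at 10.8 to 18.8 CPM after B. thetaiotaomicron and 9.94 to 18.0 CPM after PBS. Hoxa6 lay between 2.65 and 5.85 CPM after B. thetaiotaomicron and between 0.585 (sample 4) and 5.04 CPM after PBS. Hoxb5 ranged from 1.68 to 14.6 CPM and Hoxd8 from 1.49 to 20.1 CPM over all 14 samples, both highest in PBS sample 4. Hoxc5, Hoxc6 and Hoxc8 did not exceed 1.17 CPM.

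Groups 1 to 4, which act toward the head in the embryo, were low by CPM apart from Hoxa3. Per length Hoxa3 was low too, with a mean of 1.79 FPKM over the 14 samples, against 1.22 for Hoxa2 and 7.66 for Hoxa5. Hoxa3, known from the pharyngeal pouches, ranged from 7.75 to 13.8 CPM after B. thetaiotaomicron and 6.63 to 14.2 CPM after PBS. Hoxa2, a hindbrain and second-arch gene, ranged from 1.54 to 3.56 CPM after B. thetaiotaomicron and 1.18 to 2.65 CPM after PBS. Hoxb3 and Hoxb4 ranged from 0.239 to 7.86 CPM and from 0.771 to 6.95 CPM over the 14 samples, both highest in PBS sample 4. Hoxb2, Hoxd1 and Hoxd3 stayed below 1 CPM in every sample. Hoxa4, Hoxc4 and Hoxd4 reached 1.19, 1.43 and 1.62 CPM. Hoxc4, the Hoxc gene with the highest mean level per length, ranged from 0.134 through 0.270 to 0.565 CPM after B. thetaiotaomicron, against 0.119 through 0.412 to 1.43 CPM (sample 4) after PBS, on at most 22 counts.

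To compare the gavages, counts were tested with edgeR's quasi-likelihood F test over all 14070 genes that passed the filter on low counts, of which 35 (0.249%) had a Benjamini-Hochberg adjusted p under 0.05. Of the 39 Hox genes, 22 passed the filter: 9 of Hoxa, 8 of Hoxb, 5 of Hoxd and none of Hoxc. None of the 22 was called after adjustment, in edgeR, limma-voom or DESeq2. At an unadjusted p under 0.05 there were 3 of 22 (13.6%), against 15.2% of all genes tested, a share near the background. In these bulk samples fewer cells of a type and less RNA per cell cannot be told apart.

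The 3 were Hoxd11, Hoxa2 and Hoxd10. Hoxd11 averaged 0.443 ± 0.576 CPM after B. thetaiotaomicron and 3.01 ± 3.77 CPM after PBS (SD, n = 7 each), a fitted log2 fold change of -2.78 ± 1.01 (SE, edgeR adjusted p = 0.212). Hoxa2 averaged 2.54 ± 0.732 CPM after B. thetaiotaomicron and 1.78 ± 0.529 CPM after PBS, a log2 fold change of 0.51 ± 0.23 (edgeR adjusted p = 0.305). Hoxd10 averaged 0.679 ± 0.724 CPM after B. thetaiotaomicron and 2.85 ± 3.37 CPM after PBS, a log2 fold change of -2.09 ± 0.96 (edgeR adjusted p = 0.326). None passed the threshold, and in each the group ranges overlap.

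Group 13 gave no call either. Hoxd13 averaged 7.07 ± 10.4 CPM after B. thetaiotaomicron and 44.8 ± 81.4 CPM after PBS, a log2 fold change of -2.67 ± 1.44 (edgeR adjusted p = 0.400). Hoxb13 averaged 136.5 ± 135.1 CPM after B. thetaiotaomicron and 227.8 ± 201.6 CPM after PBS, a log2 fold change of -0.74 ± 1.01 (edgeR adjusted p = 0.775). Hoxa13 averaged 75.2 ± 15.4 CPM after B. thetaiotaomicron and 69.9 ± 31.2 CPM after PBS, a log2 fold change of 0.11 ± 0.44 (edgeR adjusted p = 0.935). Single libraries move these values: leaving out each sample in turn, the log2 fold change of Hoxd13 lay between -3.68 (without B. thetaiotaomicron sample 3) and -1.19 (without PBS sample 3), and limma-voom gave -1.62. That of Hoxb13 lay between -1.24 (without B. thetaiotaomicron sample 3) and -0.46 (without PBS sample 3), and limma-voom gave -0.08. That of Hoxa13 was -0.11 without PBS sample 4, and limma-voom gave 0.55.

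Over the 22 tested genes the median log2 fold change was -0.36, against -0.01 over all genes tested, with 9 positive and 13 negative values. All 9 Hoxa genes had positive values, from 0.11 for Hoxa13 and Hoxa6 to 0.62 for Hoxa9, and all 13 Hoxb and Hoxd genes had negative ones. Without PBS sample 4 the split was 13 positive and 9 negative with a median of 0.09. The 8 genes that changed sign without it were Hoxa6, Hoxa13 and Hoxb3 to Hoxb8, while all 5 tested Hoxd genes, Hoxb9 and Hoxb13 stayed negative and the other Hoxa genes stayed positive. No tested Hox gene had groups that did not overlap, against 0.540% of all genes tested.

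**Figure D4:**
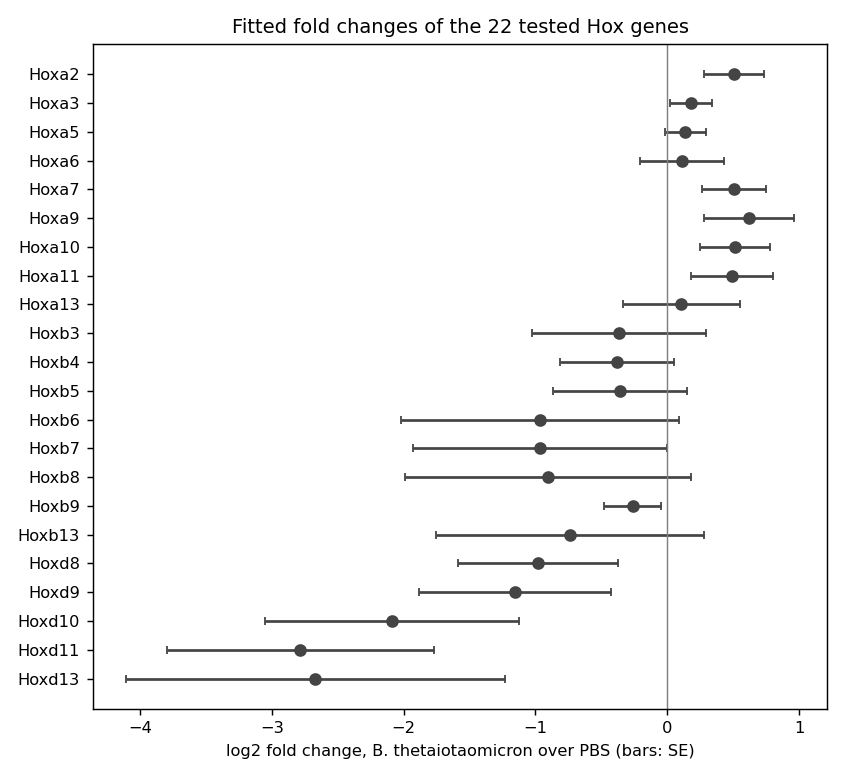
Fitted log2 fold change of B. thetaiotaomicron over PBS for the 22 tested Hox genes (points, edgeR, with SE as bars), ordered by cluster and paralog number. Bars are widest for Hoxd13, Hoxb8, Hoxb6, Hoxb13 and Hoxd11, and no gene passed the adjusted threshold.

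The spread between samples was larger for Hox genes than for most genes. The median SD of log2 CPM over the 14 samples was 0.99 over the 22 tested Hox genes and 0.20 over all genes tested, a description with no test. Hoxd13 had the fourth largest SD of 14070 genes and Hoxb13 ranked 12 from the top. The SD was larger in PBS than in B. thetaiotaomicron samples for 20 of the 22 (90.9%), against 69.0% of all genes tested.

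Whether Hox genes vary together across samples was asked by correlating each of the other 21 tested genes with Hoxd13 on log2 CPM over the 14 samples, with two-sided permutation tests (100000 resamples) adjusted over the 21 relations. Of these, 9 had both Pearson's r and Spearman's rho past 0.05 after adjustment: 1 positive, Hoxb13, and 8 negative, Hoxa2, Hoxa11, Hoxb4, Hoxb5, Hoxb6, Hoxb7, Hoxb8 and Hoxb9. Hoxb13 had r = 0.83 (permutation p = 5e-05, adjusted p = 0.00105) and rho = 0.956 (permutation p = 1e-05, the smallest the resampling can give, adjusted p = 0.00021). Hoxb8 had r = -0.763 (permutation p = 0.00161, adjusted p = 0.0153) and rho = -0.828 (permutation p = 0.00056, adjusted p = 0.00588). The permutation tests were not run on genes outside the Hox family, so no background share stands beside the 9 called relations. By rank, some genes outside the family lay closer to Hoxd13 than Hoxb13 did, among them Slc6a4 with rho of 0.978.

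PBS sample 3 was farthest from the Hoxd13 median, and B. thetaiotaomicron samples 2 and 4 and PBS sample 4, all at 0, were tied next, so each of the 3 was left out with it in turn, a choice made after the data were seen. All 9 relations kept their sign each time, with r for Hoxb13 between 0.812 and 0.911 and r for Hoxb8 between -0.767 and -0.707. Not all kept an unadjusted permutation p of r under 0.05. With B. thetaiotaomicron sample 2 left out, 4 of the 9 did not (Hoxa2, Hoxa11, Hoxb4 and Hoxb5). With B. thetaiotaomicron sample 4 left out, 2 did not (Hoxa2 and Hoxa11), and with PBS sample 4 left out, 3 did not (Hoxb4, Hoxb5 and Hoxb9), so those relations rest on few samples. After adjustment 1, 9 and 2 of the 21 relations were called in these 3 cases. Within the B. thetaiotaomicron samples r was 0.944 for Hoxb13 and -0.94 for Hoxb8, and within the PBS samples it was 0.809 for Hoxb13 and -0.697 for Hoxb8 (permutation tests were run on the pooled samples only; n = 7 each). The number of called relations was 1 without B. thetaiotaomicron sample 2, 4 without B. thetaiotaomicron sample 3 or 7, and 5 without PBS sample 3. Without B. thetaiotaomicron sample 2, r for Hoxb8 was -0.716 and no longer past the adjusted threshold. Without PBS sample 4, 10 relations were called, and r was 0.90 for Hoxb13 and -0.714 for Hoxb8. Hoxd8, Hoxd9, Hoxd10 and Hoxd11, which lie in the same cluster as Hoxd13, had r of -0.575, -0.136, 0.385 and 0.45 and were not called. Hoxd8 came nearest to the threshold of these, with permutation adjusted p of 0.0594 for r and 0.0533 for rho.

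**Figure D5:**
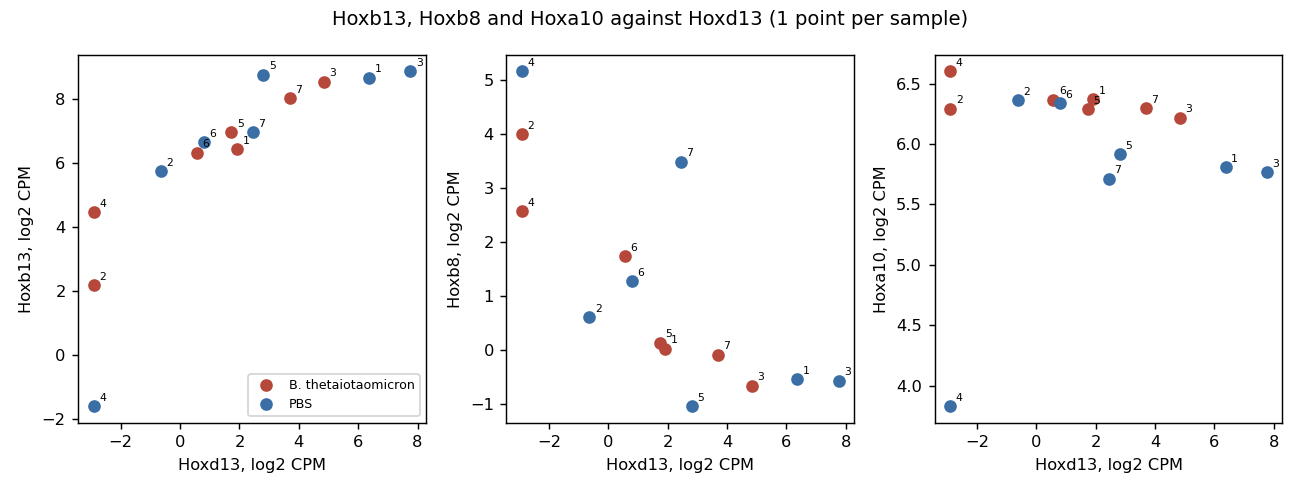
Log2 CPM of Hoxb13, Hoxb8 and Hoxa10 (y axes) against Hoxd13 (x axes), 1 point per sample numbered by library, B. thetaiotaomicron in red and PBS in blue. Hoxb13 climbs with Hoxd13 in both groups and Hoxb8 descends, with PBS sample 7 above the rest of that trend, whereas the Hoxa10 points are level apart from PBS sample 4.

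With Hoxb13 as the anchor in place of Hoxd13, an alternative added after the data were seen, 9 relations were called, 2 positive (Hoxd13 and Hoxa13) and 7 negative. The Hoxa genes turn on few samples here. For Hoxa9, r with Hoxb13 was 0.573 over 14 samples and -0.823 without PBS sample 4 and B. thetaiotaomicron sample 2. For Hoxa11 it was -0.23 over 14 samples and -0.929 without those 2. By rank both genes were already negative over 14 samples, with rho of -0.415 for Hoxa9 and -0.684 for Hoxa11.

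Promoters were read from RefSeq's table for GRCm38.p6 (from 250 bases before to 50 bases after a gene's start), which gave 24 promoters for 22 of the 39 Hox genes; Hoxb13 was among those not matched. The promoters of Hoxd13 and Hoxb8, genes that varied in opposite directions, are shown, with capitals for matches on either strand to CATAAA, sought because Cdx proteins are known to bind such AT-rich sites, or to a longer form with one more A, CAATAAA, sought for posterior Hox proteins. The 2 motifs share their last letters, but neither contains the other.
Hoxd13 promoter, chr2:74667975-74668274, plus strand: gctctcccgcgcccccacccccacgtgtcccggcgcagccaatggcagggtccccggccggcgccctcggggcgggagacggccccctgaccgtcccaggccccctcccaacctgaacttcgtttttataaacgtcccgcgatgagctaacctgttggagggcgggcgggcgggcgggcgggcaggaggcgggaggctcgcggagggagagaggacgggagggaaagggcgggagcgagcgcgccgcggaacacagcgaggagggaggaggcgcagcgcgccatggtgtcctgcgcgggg
Hoxb8 promoter, chr11:96281655-96281954, plus strand: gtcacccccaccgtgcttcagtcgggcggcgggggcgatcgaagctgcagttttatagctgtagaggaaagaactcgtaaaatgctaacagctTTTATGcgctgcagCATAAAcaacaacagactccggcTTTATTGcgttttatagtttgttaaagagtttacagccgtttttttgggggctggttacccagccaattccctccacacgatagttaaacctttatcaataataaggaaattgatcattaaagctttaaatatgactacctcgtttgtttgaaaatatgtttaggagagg

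The Hoxd13 window had a GC content of 74.3% and held neither motif. The Hoxb8 window had a GC content of 42.3% and 2 matches to the shorter motif. Hoxa2, Hoxa11 and Hoxb4, also called negative with Hoxd13, had 0 matches to the shorter motif in their windows. The shorter motif was in 11.9% of 32851 promoters and in 5 of the 24 Hox promoters, and the longer one was in 4.60% of promoters and in 2 of the 24. A match is a description of letters and not a bound site.

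Genes known to work with Hox genes were described from lists. Of 8 tested TALE cofactors (Pbx, Meis and Pknox, homeodomain partners of Hox proteins), none was called by edgeR, 0 had an unadjusted p under 0.05, and the median log2 fold change was -0.001 with 4 positive values. Of 10 tested Cdx and retinoic acid regulators none was called by edgeR and 0 had an unadjusted p under 0.05, with 2 positive values and a median of -0.14. Cdx1, the most abundant, ranged from 306.8 to 366.9 CPM after B. thetaiotaomicron and 328.7 to 401.9 CPM after PBS. Of 16 Polycomb and trithorax regulators, none was called by edgeR and 2 had an unadjusted p under 0.05, against 15.2% of all genes tested. They had 6 positive values and a median log2 fold change of -0.05. Kmt2d had the highest mean, 102.1 CPM.

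Cdx2, a ParaHox gene of the intestinal epithelium that is singled out after its values were seen, was lowest where Hoxd13 was highest. It was 141.6 to 374.3 CPM after B. thetaiotaomicron, against 25.5 CPM in PBS sample 3 and 401.4 CPM in PBS sample 4, the lowest and highest of the PBS samples. Evx2, a homeobox gene beside Hoxd13 and also chosen after its values were seen, was at most 3.33 CPM after B. thetaiotaomicron, against 11.6 CPM in PBS sample 3 and 0 in PBS sample 4. Of the 14 tested genes beside the clusters none was called by edgeR and 2 had an unadjusted p under 0.05, against 15.2% of all genes tested. They had 7 positive values and a median log2 fold change of 0.02. Hnrnpa1, beside Hoxc, had the highest mean at 258.6 CPM.

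Of 4 distal colon genes in the table, 3 were tested and none was called. All 3 had negative log2 fold changes with a median of -1.20, and 2 (Scnn1b and Scnn1g, subunits of the epithelial sodium channel) had an unadjusted p under 0.05, against 15.2% of all genes. Scnn1b averaged 12.6 ± 4.84 CPM after B. thetaiotaomicron and 28.8 ± 14.03 CPM after PBS, with a fitted log2 fold change of -1.20 ± 0.33 (edgeR adjusted p = 0.124). Scnn1g averaged 6.26 ± 5.98 CPM after B. thetaiotaomicron and 37.7 ± 43.0 CPM after PBS, a log2 fold change of -2.60 ± 0.92 (edgeR adjusted p = 0.201). The summed level of the 4 was 22.1 to 145.9 CPM after B. thetaiotaomicron and 27.9 to 605.1 CPM after PBS. Fxyd4, a regulator of the sodium pump with the highest mean of the 4, reached 40.6 CPM after B. thetaiotaomicron and 333.2 CPM in PBS sample 3. Insl5, a hormone of colonic enteroendocrine cells, was 8.61 to 93.4 CPM after B. thetaiotaomicron and 1.23 (sample 4) to 144.9 CPM after PBS. Of the proximal colon genes, Aqp4 and Ang4, both were tested with positive values (median log2 fold change 0.77), neither was called and 0 had an unadjusted p under 0.05. Aqp4, a water channel with the higher mean, was 707.5 to 1160 CPM after B. thetaiotaomicron and 76.4 (sample 4) to 1077 CPM after PBS. The distal genes thus had negative values as Hoxd13 did, and peaked and bottomed in some of the same samples, and their part in the Hox differences was not tested.

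Among 13347 other genes, the 5 most like Hoxd13 by Spearman's rho over the 14 samples were Slc6a4 (rho 0.978), the serotonin transporter, Fut9 (0.974), Pde7a (0.969), Abi3bp (0.965) and Ybx2 (0.965). Slc6a4 was 4.24 to 38.2 CPM after B. thetaiotaomicron and 4.09 to 43.8 CPM after PBS. The 5 most like Hoxa7, the gene of groups 1 to 8 with the highest mean CPM, were Isl2 (0.925), Prr5l (0.921), Mlph (0.916), Cgas (0.912) and Mob2 (0.908). For Hoxb8, an anchor added after the data were seen, they were Ap2a2 (0.987), Fzd3 (0.978), Ntrk2 (0.978), Atp11a (0.974) and Suox (0.974). These are the extremes of many comparisons and carry no test.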

How the data were processed

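Libraries were prepared from purified total RNA of 14 colon samples using a SMARTER mRNA-Seq kit, per the labels. No aligner or counter is given in the sources used here; the submitters' processing notes name GRCm38 and mm10. Raw counts for 21898 genes, FPKM values and gene lengths stand in 1 table that the authors deposited, per the file headers. Counts per library totalled 13150140 to 16781708, which sets the counting precision. The deposited FPKM equal the count divided by length and library total within 0.1% for 100% of values, so counts were tested and FPKM served only to compare levels between genes. None of the 39 Hox starts in the table equals GENCODE M21's, so positions were taken from GENCODE M21 by identifier.

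Groups come from the titles, replicate numbers from the library names. Libraries of a group differed by more than sampling noise (chi-square per degree of freedom 10.3 to 121.7). Genes were kept with filterByExpr (minimum count 10, minimum total 15), scaled by TMM and tested with edgeR 4.0.16 in R 4.3.3 (quasi-likelihood test with robust dispersions and no term but group), with Benjamini-Hochberg adjustment over 14070 genes at 0.05. SEs were derived from the fold change and the F statistic. Log2 CPM used a prior count of 2. The median biological coefficient of variation was 0.14. Intervals for shares are 95% Wilson intervals. Homeoboxes came from GENCODE coding sequences. Scripts were tested on simulated data.

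Named in full are paralog group 13, the Hox gene with the highest mean FPKM in each cluster and any called; of each list, called members and the one with the highest mean CPM; and the 5 genes most like each anchor, with at least 1 CPM on average. Other named genes were picked with their values in view. Members and lists were chosen with earlier results of these data known. Alternatives were DESeq2 1.42.0, limma-voom (limma 3.58.1), other scaling, filters and dispersions, the replicate block, and leaving out samples. Values of some single genes that the naming rule picks are not reported here. None of the 17 Hox cluster RNAs sought by name was analysed here.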

Additional observations from a re-analysis of the deposited data

Results flagged for a closer look

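In each group of 7, a sample was noted when its gap to its neighbour, as a share of the group's range, exceeded Dixon's 95% critical value. For normally distributed values chance does so in about 1 in 20 groups, but CPM are skewed to the right, so that rate does not apply here. Of 44 groups (22 tested Hox genes in each of the 2 gavages), 16 did on CPM. On log2 CPM, a scale added after the data were seen, 7 did, and 4 were noted on both scales: Hoxa10 in B. thetaiotaomicron sample 4, Hoxb3 in B. thetaiotaomicron sample 2, and Hoxa6 and Hoxa13 in PBS sample 4. The rule was run on Hox genes only, so neither count has a share over all genes beside it.

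Among B. thetaiotaomicron samples, sample 2 was far above the rest for Hoxb3 (5.24 CPM), Hoxb5 (9.04 CPM), Hoxb6 (30.05 CPM), Hoxb7 (14.4 CPM) and Hoxb8 (15.85 CPM). Sample 4 was far above the rest for Hoxa10 (97.0 CPM).

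Among PBS samples, sample 4 was far above the rest for Hoxb5 (14.6 CPM), Hoxb6 (63.9 CPM), Hoxb7 (35.3 CPM), Hoxb8 (35.8 CPM), Hoxd8 (20.1 CPM) and Hoxd9 (8.44 CPM). It was far below them for Hoxa6 (0.585 CPM) and Hoxa13 (3.38 CPM). PBS sample 3 was far above the rest for Hoxd11 (10.9 CPM) and Hoxd13 (216.4 CPM). Of the 16, 8 fall on PBS sample 4 and 5 on B. thetaiotaomicron sample 2. The genes of a cluster are not independent of each other, so these are not separate events.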

How the results depend on the processing

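No Hox gene was called under any alternative run. Over all genes, 35 were called, 447 with DESeq2, 15 with the replicate block, 0 without B. thetaiotaomicron sample 3 and PBS samples 1, 3 and 5 together, and 0 to 121 leaving out 1 sample, the 121 without PBS sample 2. The replicate numbers gave no clear pairing of the samples, though this check cannot exclude one. Of 7 same-numbered pairs, 4 had deviations correlated above 0.1, and 1 sample correlated best with its own number. Among fitted Hox fold changes, 515 of 527 alternatives kept their direction. Without those 4 samples Hoxb13 was 0.47 and Hoxd13 0.88, but the samples were known to be high in these genes and 3 of them are PBS, so the shift follows from the choice and says nothing of stability. With limma-voom Hoxb3 was 0.13. Leaving out 1 sample gave log2 fold changes of -0.11 to 0.20 for Hoxa13, -0.0775 to 0.21 for Hoxa6, -0.92 to 0.39 for Hoxb3, -0.62 to 0.0372 for Hoxb4, -0.72 to 0.22 for Hoxb5, -1.97 to 0.27 for Hoxb6, -1.76 to 0.29 for Hoxb7 and -1.87 to 0.53 for Hoxb8. The sign turned without PBS sample 4 in all 8, and for Hoxa6 also without B. thetaiotaomicron sample 6. Relations with Hoxd13 called over leaving out 1 sample numbered 1 to 10, against 9; leaving out PBS sample 3 with B. thetaiotaomicron sample 2 gave 1, and with PBS sample 4 gave 2. The cause of these shifts was not tested. Depth limits what can be said of genes at 0 or a few counts in every library, such as most of Hoxc.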
